A study of Mus musculus with 12 samples.

Results

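Paired receptors are families of cell surface proteins in which closely related members send opposite signals into the same cell. The 10 genes described here are 9 receptors of this kind on myeloid cells and their adaptor: Pilra, Pilrb1, Pilrb2, Lilrb4a, Lilr4b, Pirb, Sirpa, Cd33, Lair1 and Tyrobp. They were taken by symbol, and all 10 were among the 38739 symbols of the deposited table. They were chosen with results of these data known. Pilrb1 was selected on its difference between cGAS-/- and WT macrophages with LPS, so for all 10 genes that comparison is described and not tested. The comparisons of LPS with untreated cells use the same LPS samples, so their p-values for these genes are not independent of that choice.

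RNA was sequenced from bone marrow-derived macrophages of WT mice and of cGAS-/- mice, which lack the cytosolic DNA sensor cyclic GMP-AMP synthase, either untreated (UT, media control) or with lipopolysaccharide (LPS), a bacterial cell wall component sensed by TLR4. Each of the 4 groups (WT UT, cGAS-/- UT, WT LPS, cGAS-/- LPS) had 3 samples. The study describes male mice 8 weeks of age, with the cGAS-/- line on a C57BL/6J background. The labels give LPS at 100 ng/mL for 1 h, whereas the methods give a higher dose and a longer exposure, and the labels also name neutrophils at RNA extraction and cGAS knockout mice as the source of every sample. These conflicts could not be settled, so the length of LPS exposure is uncertain. The 3 samples of a group are called technical replicates in the study, so p-values measure the spread between these samples and need not reflect the spread between mice.

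Inhibitory members of these families carry immunoreceptor tyrosine-based inhibitory motifs (ITIMs) in their cytoplasmic tails, which recruit the phosphatases SHP-1 (Ptpn6) and SHP-2 (Ptpn11). Activating members have short tails and pair with an adaptor that carries an activation motif (ITAM), such as DAP12, the product of Tyrobp, which recruits the kinase Syk. In macrophages the balance between both kinds sets the threshold for responses to microbes, matrix and neighbouring cells.

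Cgas itself checked the labels. Values are in TPM, a share of transcripts corrected for their length, taken here as averaged over the transcripts of a symbol. A listed value is therefore not the whole share of a gene. Cgas lay at 2.67, 2.89 and 2.68 in WT UT, at 1.19, 2.88 and 3.25 in WT LPS, at 0.0841, 0.110 and 0.291 in cGAS-/- UT, and at 0.0703, 0.0919 and 0.0975 in cGAS-/- LPS. All 6 samples labelled cGAS-/- were below all 6 labelled WT. WT LPS replicate 3 stood apart from the other samples. Its values summed to 709802 against 447189 to 503156 elsewhere, and a ferritin pseudogene, Fth-ps3, held 31.8% of its total against 6.25% to 17.7% elsewhere. The results that it moved most are therefore also given without it. All 7 macrophage markers were detected, with sums of 16919 to 34259 TPM over the 12 samples, of which the listed value of Lyz2 was 15701 to 33426. The other 6 markers on that list moved in both directions with LPS. The means of Fcgr1, Itgam and Spi1 were higher and those of Cd68, Mertk and Mrc1 lower with LPS in both genotypes: Fcgr1 averaged 70.2 TPM in WT UT, 461 in WT LPS, 62.4 in cGAS-/- UT and 276 in cGAS-/- LPS, Cd68 averaged 1015 TPM in WT UT, 358 in WT LPS, 1026 in cGAS-/- UT and 236 in cGAS-/- LPS, and Mrc1, the mannose receptor, averaged 80.9, 7.20, 24.5 and 0.938 TPM in that order of groups. No T cell, NK cell or dendritic cell marker reached a listed value of 1 TPM in any sample. The 7 B cell markers summed to 108 to 134 TPM in WT UT, 30.7 to 45.0 in WT LPS, 20.0 to 28.6 in cGAS-/- UT and 3.08 to 8.89 in cGAS-/- LPS. The listed values of the immunoglobulin genes Igkc and Ighm made up most of that sum, while Pax5, which defines B cells, stayed at or below 0.0221 TPM in every sample. The 9 neutrophil markers summed to 154 to 225 TPM in WT UT, 68.1 to 382 in WT LPS, 71.7 to 141 in cGAS-/- UT and 71.4 to 90.2 in cGAS-/- LPS, so B cell and neutrophil sums both differed between genotypes in UT cells without overlap. Their part in the UT differences of the receptors was not tested. In bulk RNA, fewer cells of a type and less RNA per cell cannot be told apart.

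The 3 Pilr genes lie side by side on the minus strand of chromosome 5 within 49.9 kb of GRCm39: Pilra at 137820214 to 137834543, Pilrb1 at 137850409 to 137856368 and Pilrb2 at 137864089 to 137870077. Their promoters are shown because the 3 genes moved together in these samples. The RefSeq windows of 300 bases around each start site, taken from the GRCm38.p6 table and matched once each, without a mismatch, to GRCm39, read 5′ to 3′ on the gene's strand as follows. Capitals mark an interferon-stimulated response element (GAAA, any 2 bases, GAAA) and the C/EBP motif TTGCNNAA, each searched on both strands.
Pilra, chr5:137834491-137834790: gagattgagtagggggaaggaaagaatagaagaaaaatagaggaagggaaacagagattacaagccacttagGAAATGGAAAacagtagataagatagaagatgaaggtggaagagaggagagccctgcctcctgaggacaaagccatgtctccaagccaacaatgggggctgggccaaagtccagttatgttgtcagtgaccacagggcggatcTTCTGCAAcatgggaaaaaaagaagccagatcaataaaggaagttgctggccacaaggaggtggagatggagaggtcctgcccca
Pilrb1, chr5:137856262-137856561: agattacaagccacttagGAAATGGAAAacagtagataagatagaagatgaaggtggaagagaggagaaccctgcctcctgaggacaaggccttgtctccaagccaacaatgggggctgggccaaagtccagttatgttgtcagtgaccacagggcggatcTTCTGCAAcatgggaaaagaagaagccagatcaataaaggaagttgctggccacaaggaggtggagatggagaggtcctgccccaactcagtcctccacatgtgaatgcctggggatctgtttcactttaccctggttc
Pilrb2, chr5:137869971-137870270: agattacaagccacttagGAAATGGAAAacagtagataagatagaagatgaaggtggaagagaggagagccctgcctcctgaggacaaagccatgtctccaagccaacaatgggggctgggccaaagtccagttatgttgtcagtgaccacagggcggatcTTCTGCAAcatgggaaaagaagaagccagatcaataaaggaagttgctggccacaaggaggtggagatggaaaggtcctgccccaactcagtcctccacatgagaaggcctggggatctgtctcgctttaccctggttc

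Pilra and Pilrb1 were identical at 242 of 246 aligned bases (98.4%), Pilra and Pilrb2 at 244 of 246 (99.2%), and Pilrb1 and Pilrb2 at 292 of 300 (97.3%). All 3 windows held both marked motifs, which 3.49% and 10.8% of the 27025 promoters in the table hold. Since the aligned windows are near copies of each other, the 3 matches are not separate observations. The PU.1 core GAGGAA, held by 28.3% of all promoters, was in 1 of the 3, that of Pilra. The AP-1 motif TGANTCA and an NF-kB motif (GGG, any 3 bases, TNCC) were in 0 of 3, against 7.93% and 17.2% of all promoters. A match is a description of the letters and not of binding. Of the 10 genes, 7 had a promoter in the table; Sirpa, Lilrb4a and Tyrobp did not. The transcripts resemble each other too. The best match between Pilrb1 and Pilrb2 was 97.3% identical and covered 30.4% of the longest Pilrb1 transcript, so reads can be shared between these genes and the split of values among them is uncertain.

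Pilra encodes an inhibitory receptor with ITIMs. Its level was 4.62, 3.77 and 3.52 TPM in WT UT, and 22.9, 36.3 and 17.1 TPM in WT LPS. In cGAS-/- cells, Pilra lay at 1.22, 2.22 and 0.824 TPM in UT and at 86.02, 85.7 and 82.5 TPM with LPS. The 4 groups did not overlap: cGAS-/- UT was lowest, then WT UT, then WT LPS, with cGAS-/- LPS highest. On the log2(TPM + 1) scale, Pilra rose with LPS by 2.35 ± 0.30 in WT (SE, limma adjusted p = 0.00026) and by 5.19 ± 0.30 in cGAS-/- cells (adjusted p = 1.3e-06).

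Pilrb1 and Pilrb2 encode the activating partners, which signal through DAP12. Pilrb1 was at 1.75, 1.54 and 2.37 TPM in WT UT, 9.73, 9.12 and 6.17 in WT LPS, 0.435, 0.520 and 0.663 in cGAS-/- UT, and 19.7, 21.05 and 21.6 in cGAS-/- LPS. Pilrb2 was at 1.30, 2.74 and 1.87 TPM in WT UT, 13.01, 6.91 and 5.67 in WT LPS, 0.565, 0.420 and 0.901 in cGAS-/- UT, and 16.7, 16.4 and 14.2 in cGAS-/- LPS. Both followed the order of groups seen for Pilra, again without overlap. In WT cells the log2 rise with LPS was 1.68 ± 0.21 for Pilrb1 (SE, limma adjusted p = 0.00025) and 1.64 ± 0.29 for Pilrb2 (adjusted p = 0.0023). In cGAS-/- cells it was 3.82 ± 0.21 for Pilrb1 (limma adjusted p = 1.1e-06) and 3.37 ± 0.29 for Pilrb2 (adjusted p = 2.0e-05). The cGAS-/- LPS samples in this comparison also entered the selection of Pilrb1. Without WT LPS replicate 3 the rises in WT cells were 2.59 for Pilra, 1.86 for Pilrb1 and 1.85 for Pilrb2. From the 6 WT samples alone, Pilrb2 did not pass (limma adjusted p = 0.062).

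In UT cells the 3 Pilr genes were lower in every cGAS-/- sample than in every WT sample. The log2 difference between cGAS-/- and WT was -1.07 ± 0.30 for Pilra, -0.90 ± 0.21 for Pilrb1 and -0.85 ± 0.29 for Pilrb2 (SE), and none passed with all 12 samples in the fit (limma adjusted p = 0.14, 0.064 and 0.30). From the 6 UT samples alone, Pilra (limma adjusted p = 0.041) and Pilrb1 (adjusted p = 0.015) passed and Pilrb2 did not (adjusted p = 0.067). With LPS the direction was the opposite: the 3 genes were higher in every cGAS-/- sample, by 1.76, 1.24 and 0.89 on the log2 scale for Pilra, Pilrb1 and Pilrb2, and by 1.52, 1.06 and 0.67 without WT LPS replicate 3.

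**Figure D1:**
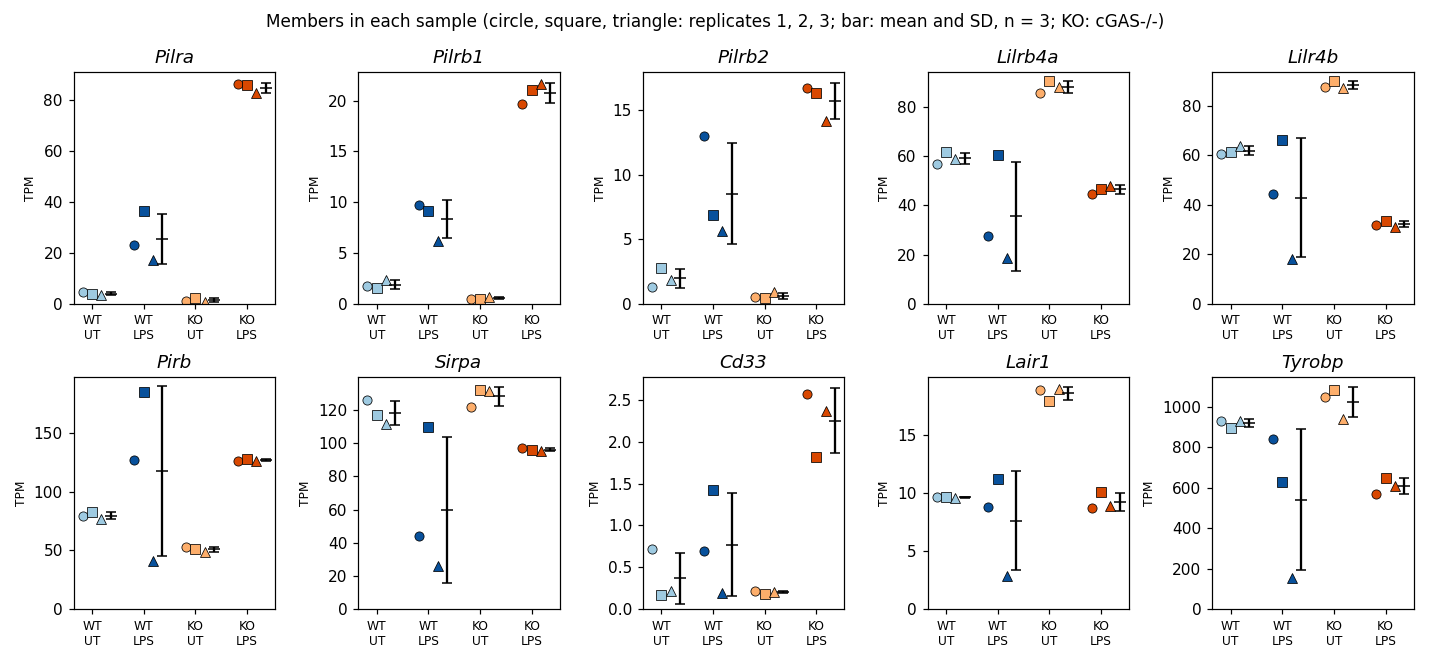
TPM of each of the 10 genes in the 12 samples, with circles, squares and triangles for replicates 1, 2 and 3, and the mean and SD of each group (n = 3) as a bar; each panel has its own axis from 0, and KO stands for cGAS-/-. Pilra, Pilrb1 and Pilrb2 are highest in cGAS-/- LPS, and WT LPS replicate 3 is the lowest WT LPS sample for all 10 genes.

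Within a sample, the ratio of 2 genes does not depend on how the sample was scaled. The log2 ratio of Pilrb1 to Pilra was -1.08 ± 0.45 in WT UT, -1.57 ± 0.39 in WT LPS, -1.30 ± 0.91 in cGAS-/- UT and -2.03 ± 0.097 in cGAS-/- LPS (SD, n = 3). Its groups overlapped in each comparison, and LPS against UT gave an exact two-sided permutation p = 0.3 in WT and in cGAS-/- cells. The smallest p that 3 against 3 samples allow is 0.1. The ratio of Pilrb2 to Pilra overlapped likewise, with differences between LPS and UT of -0.53 in WT (exact permutation p = 0.5) and -1.30 in cGAS-/- cells (exact permutation p = 0.3).

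Lilrb4a (chromosome 10, 51367027 to 51372707, plus strand) encodes an inhibitory receptor with ITIMs, and Lilr4b (51356728 to 51362799, same strand) is its neighbour, listed in the annotation as Lilrb4b. Their transcripts were 95.1% identical over 84.6% of Lilrb4a, so their values may share reads. Lilrb4a was at 56.9, 61.4 and 58.7 TPM in WT UT, 27.6, 60.3 and 18.4 in WT LPS, 85.5, 90.2 and 87.98 in cGAS-/- UT, and 44.5, 46.7 and 47.98 in cGAS-/- LPS. Lilr4b was at 60.4, 61.4 and 63.7 TPM in WT UT, 44.4, 66.01 and 18.03 in WT LPS, 87.5, 90.1 and 87.1 in cGAS-/- UT, and 31.9, 33.4 and 31.04 in cGAS-/- LPS. Both were highest in cGAS-/- UT, and in WT LPS replicate 2 lay near WT UT while replicates 1 and 3 lay below it. Lilr4b fell with LPS in cGAS-/- cells by 1.43 on the log2 scale (SE 0.37, limma adjusted p = 0.026), a call that was lost under 7 of 24 alternatives. Lilrb4a had a log2 difference of -0.91 ± 0.35 there (SE, limma adjusted p = 0.12). It passed under 6 of 24 alternatives, among them the 6 cGAS-/- samples alone (limma adjusted p = 2.7e-05) and the fit without WT LPS replicate 3 (adjusted p = 0.011).

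The pair did not keep one ratio. The log2 ratio of Lilrb4a to Lilr4b was -0.086, -0.00066 and -0.12 in WT UT and -0.033, 0.0029 and 0.015 in cGAS-/- UT, so it stayed within a narrow range in UT cells. With LPS it was 0.48, 0.49 and 0.63 in cGAS-/- cells, above every UT sample of that genotype (difference 0.54, exact permutation p = 0.1, the smallest possible). In WT LPS it was -0.69, -0.13 and 0.032 and overlapped WT UT (exact permutation p = 0.6).

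Pirb (chromosome 7, 3714408 to 3723416, minus strand) encodes an inhibitory receptor for MHC class I. It was at 78.9, 82.6 and 77.2 TPM in WT UT, 127, 185 and 41.1 in WT LPS, 52.8, 51.2 and 48.8 in cGAS-/- UT, and 126, 128 and 127 in cGAS-/- LPS. With LPS, 2 of 3 WT samples lay above WT UT and replicate 3 lay below it. In WT cells the log2 difference with LPS was 0.31 ± 0.43 (SE, limma adjusted p = 0.59), and without replicate 3 of WT LPS Pirb rose by 0.94 (limma adjusted p = 0.00066). In cGAS-/- cells it was 1.30 ± 0.43 (SE, limma adjusted p = 0.072), and the 6 cGAS-/- samples alone gave adjusted p = 4.9e-06. Pirb matches the activating gene Pira2 at 96.8% identity over 50.6% of its longest transcript, so reads of the Pira genes can enter its value. Pirb is also known from B cells, whose marker sum was lower in cGAS-/- UT than in WT UT as Pirb was. The part of those cells in the Pirb value was not tested.

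Sirpa (chromosome 2, 129434039 to 129474148, plus strand) encodes the inhibitory receptor for CD47, the signal that restrains phagocytosis. It was at 126, 117 and 111 TPM in WT UT, 44.3, 109.7 and 25.96 in WT LPS, 122, 132 and 131 in cGAS-/- UT, and 97.02, 96.1 and 95.6 in cGAS-/- LPS. All 3 WT LPS samples were below WT UT, replicate 2 only slightly. With LPS, Sirpa fell by 1.21 in log2 terms in WT samples (SE 0.41, limma adjusted p = 0.046), and this call was lost under 15 of 24 alternatives, including the fit without WT LPS replicate 3 (-0.75, adjusted p = 0.066). In cGAS-/- cells its log2 difference was -0.41 ± 0.41 (SE, limma adjusted p = 0.61).

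Cd33 (chromosome 7, 43173634 to 43193875, minus strand) encodes a sialic acid-binding receptor that carries an ITIM in humans and a different tail in mice. Its listed values were low: 0.716, 0.170 and 0.217 TPM in WT UT, 0.695, 1.42 and 0.193 in WT LPS, 0.219, 0.186 and 0.203 in cGAS-/- UT, and 2.57, 1.82 and 2.36 in cGAS-/- LPS. All 3 cGAS-/- LPS samples were above the other 9. Cd33 rose with LPS in cGAS-/- cells by 1.43 ± 0.25 on the log2 scale (SE, limma adjusted p = 0.0026). In WT cells the log2 difference was 0.34 ± 0.25 (SE, limma adjusted p = 0.32), and 0.59 with WT LPS replicate 3 left out (adjusted p = 0.057).

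Lair1 (chromosome 7, 3995928 to 4066269, minus strand) encodes an inhibitory receptor for collagens. It was at 9.63, 9.65 and 9.52 TPM in WT UT, 8.73, 11.2 and 2.86 in WT LPS, 18.8, 17.9 and 18.9 in cGAS-/- UT, and 8.68, 10.1 and 8.90 in cGAS-/- LPS. The UT samples of the 2 genotypes did not overlap, and cGAS-/- UT was the highest group. The log2 difference in UT cells was 0.88 ± 0.35 (SE, limma adjusted p = 0.47) with all 12 samples and passed from the 6 UT samples alone (adjusted p = 0.00055). With LPS in cGAS-/- cells it was -0.94 ± 0.35 (SE, limma adjusted p = 0.12), and the 6 cGAS-/- samples alone gave adjusted p = 0.00015. In WT cells the log2 difference with LPS was -0.46, and its sign turned to 0.14 with TMM factors and 0.04 without WT LPS replicate 3.

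Tyrobp (chromosome 7, 30113170 to 30117010, plus strand) encodes DAP12, the adaptor on which Pilrb1 and Pilrb2 depend. It was at 929.7, 898 and 929.97 TPM in WT UT, 839.8, 630.1 and 155 in WT LPS, 1047, 1086 and 939.9 in cGAS-/- UT, and 569.5, 646 and 609 in cGAS-/- LPS. Every LPS sample was below every UT sample of its genotype. The log2 difference with LPS was -1.08 ± 0.48 in WT (SE, limma adjusted p = 0.11) and -0.75 ± 0.48 in cGAS-/- cells (adjusted p = 0.39), and the 6 cGAS-/- samples alone gave limma adjusted p = 0.00050. The difference in WT was -0.34 when WT LPS replicate 3 was left out (limma adjusted p = 0.060), and with TMM factors it was -0.38. Fcer1g, the other ITAM adaptor of myeloid cells, had log2 differences with LPS of 0.81 in WT and 1.21 in cGAS-/- cells and did not pass in either with all 12 samples (limma adjusted p = 0.14 and 0.070). Its WT groups overlapped and its cGAS-/- groups did not. With WT LPS replicate 3 left out, Fcer1g rose by 1.39 in WT and 1.21 in cGAS-/- cells (limma adjusted p = 0.00011 in each), and from the 6 samples of a genotype it passed in cGAS-/- cells (adjusted p = 2.5e-06) and not in WT (adjusted p = 0.36). With TMM factors it passed in both (limma adjusted p = 0.0049 and 0.0058). The log2 ratio of Tyrobp to Fcer1g was 0.79, 0.81 and 0.76 in WT UT and 1.06, 1.14 and 0.94 in cGAS-/- UT. With LPS it was -1.06, -0.82 and -1.44 in WT and -1.01, -0.86 and -0.88 in cGAS-/- cells. The difference between LPS and UT was -1.89 in WT and -1.96 in cGAS-/- cells, each with exact permutation p = 0.1, the smallest that 3 against 3 allow.

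**Figure D2:**
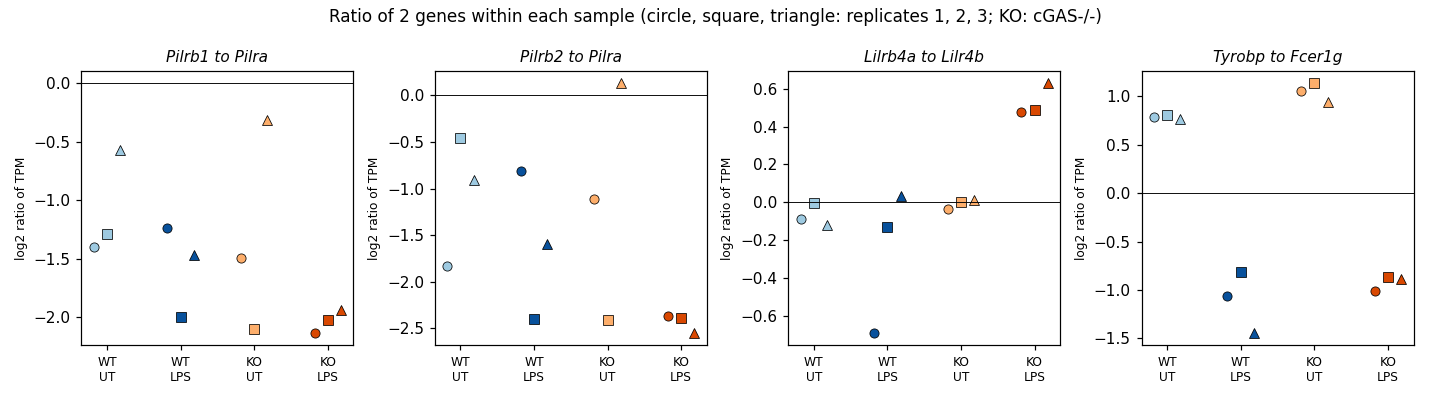
Log2 ratio of TPM of 2 genes within each of the 12 samples, with circles, squares and triangles for replicates 1, 2 and 3 and KO for cGAS-/-. Tyrobp to Fcer1g is higher in all 6 UT samples than in all 6 LPS samples, and Lilrb4a to Lilr4b is highest in the 3 cGAS-/- LPS samples.

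All 10 genes passed the filter on low values. Counted over them, LPS in WT cells gave 3 that rose (the Pilr genes) and 1 that fell (Sirpa), where 4.31% of the 11887 genes tested rose and 23.3% fell. LPS in cGAS-/- cells gave 4 that rose (the Pilr genes and Cd33) and 1 that fell (Lilr4b), against 4.76% and 9.06% of all genes. The members were chosen with results of the LPS samples known, so these counts are not independent of that choice. In UT cells 0 of 10 passed in either direction by limma, against 0.252% higher and 1.58% lower in cGAS-/- among all genes. The WT LPS samples, which had the largest SD in TPM for all 10 genes, share the estimate of spread in this fit. From the 6 UT samples alone, Lilrb4a, Lilr4b and Lair1 were higher and Pilra, Pilrb1 and Pirb lower in cGAS-/- cells, against 3.37% and 7.07% of all genes. Without WT LPS replicate 3, Lair1 was higher and Pilra, Pilrb1 and Pirb lower, against 1.22% and 4.28%. With LPS, the 6 WT samples alone gave 2 members higher and 0 lower by limma (1.4% and 4.62% of all genes), and the 6 cGAS-/- samples alone gave 5 higher and 5 lower (12.7% and 32%). Without WT LPS replicate 3, LPS gave 4 higher and 0 lower in WT cells (8.3% and 26.9% of all genes), with Pirb added to the Pilr genes, and 5 higher and 4 lower in cGAS-/- cells (9.27% and 21.9%). By range, the UT groups of the 2 genotypes did not overlap for 8 of the 10 genes, against 30.5% of all genes. LPS and UT did not overlap for 10 of 10 in cGAS-/- cells, against 55.7%, and for 5 of 10 in WT cells, against 38.2%.

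The median log2 change of all tested genes with LPS was -0.46 in WT and -0.20 in cGAS-/- cells, and -0.086 and -0.020 with TMM factors. Relative to the first pair of medians, Pilra rose by 2.81 in WT and 5.39 in cGAS-/- cells, and the median change of the 10 genes, before that adjustment, was -0.072 and 0.45. Between genotypes with LPS, where the choice of genes used the values, 9 of the 10 log2 differences were positive and 4 genes did not overlap (the Pilr genes and Cd33, against 17.7% of all genes). The median of all tested genes in this comparison was also positive, at 0.20, and was 0.039 without WT LPS replicate 3. Without WT LPS replicate 3, 4 of the 10 differences were negative: those of Lilr4b (-0.74, from -0.22 with it), Pirb (-0.27), Lair1 (-0.095) and Tyrobp (-0.26).

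**Figure D3:**
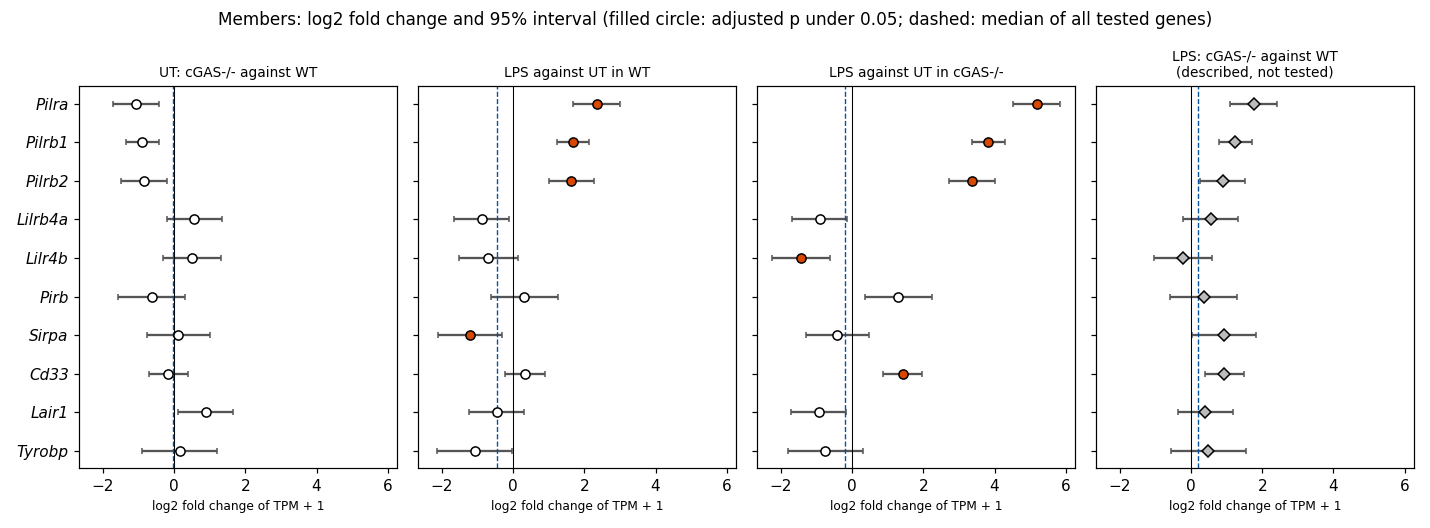
Log2 fold change of TPM + 1 with its 95% interval for the 10 genes in 4 comparisons, from limma on 12 samples; filled circles passed an adjusted p of 0.05, open circles did not, grey diamonds are described and not tested, and the dashed line is the median of all 11887 genes tested. The Pilr genes lie furthest to the right with LPS, at 1.64 to 2.35 in WT and 3.37 to 5.19 in cGAS-/- cells.

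With the members left out, the tested genes whose pattern over the 12 samples was most like that of Pilrb1 were Siglece (Pearson r = 0.99), Marcksl1 (0.98), Gm20186 (0.98), Aoah (0.97) and Serpinb2 (0.97). These correlations over log2(TPM + 1) describe 4 groups of 3 samples and carry no test. Among the members, r with Pilrb1 was 0.99 for Pilra, 0.98 for Pilrb2, 0.87 for Cd33 and 0.75 for Pirb, and it was negative for the other 5.

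Other receptors of the same kind moved in both directions with LPS. Of the 32 related receptors on the list, 30 were in the table and 25 passed the filter on low values. In WT cells 7 of these rose and 6 fell, where 4.31% and 23.3% of all genes did, and in cGAS-/- cells 10 rose and 3 fell, where 4.76% and 9.06% did. When WT LPS replicate 3 was left out, 11 rose and 6 fell in WT (8.3% and 26.9% of all genes), and 12 rose and 6 fell in cGAS-/- cells (9.27% and 21.9%). Siglece, an inhibitory sialic acid receptor, was at 4.23 to 5.60 TPM in WT UT and at 35.5 to 107 TPM in WT LPS. In cGAS-/- cells Siglece lay at 1.12 to 1.81 TPM in UT and at a median of 200.4 TPM with LPS. Its log2 rise was 3.46 ± 0.34 in WT (SE, limma adjusted p = 4.8e-05) and 6.31 ± 0.34 in cGAS-/- cells (adjusted p = 1.1e-06). Tarm1, an activating receptor that pairs with Fcer1g, rose by 3.32 in WT and 4.58 in cGAS-/- cells (limma adjusted p = 0.0013 and 0.00018). The rises in WT were 3.88 for Siglece and 4.14 for Tarm1 when WT LPS replicate 3 was left out. Sirpb1c, an activating relative of Sirpa, rose by 2.75 in WT and 1.82 in cGAS-/- cells (limma adjusted p = 0.00032 and 0.0055), and its interaction term did not pass (-0.93, adjusted p = 0.54).

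The CD300 receptors, which bind membrane lipids, were split. Cd300lb fell by 2.94 in WT and by 2.54 in cGAS-/- cells (limma adjusted p = 0.00095 and 0.0030). With WT LPS replicate 3 left out, it fell by 2.255 in WT. Cd300a, an inhibitory member, fell by 2.31 and 2.14, and Cd300ld fell by 1.77 and 1.06, all past the limma threshold. Cd300e, an activating member, was at 2.32 to 3.22 TPM in WT UT, 0.485 to 4.04 in WT LPS, 0.587 to 1.03 in cGAS-/- UT and 30.1 to 31.9 in cGAS-/- LPS. It rose with LPS in cGAS-/- cells by 4.20 ± 0.39 (SE, limma adjusted p = 3.3e-05). Between genotypes with LPS, 3 related receptors were higher in cGAS-/- cells and 0 lower, against 1.36% and 1% of all genes. They were Cd300e (3.29, limma adjusted p = 0.0015), Siglece (1.63, adjusted p = 0.036) and Clec5a (1.25, adjusted p = 0.0064), a DAP12-coupled lectin. None of these 3 passed from the 6 LPS samples alone (limma adjusted p = 0.15, 0.44 and 0.31), and Siglece was lost under 15 of 24 alternatives. When WT LPS replicate 3 was left out, the differences were 2.72 for Cd300e, 1.21 for Siglece and 1.26 for Clec5a, and 4 related receptors were higher and 10 lower, against 3.87% and 4.39% of all genes in that fit. The effect of LPS itself differed between genotypes for 2 related receptors, Siglece and Cd300e, both with the larger rise in cGAS-/- cells, where 0.732% of all genes had a positive and 0.168% a negative interaction term past the limma threshold. The related receptors were listed with earlier results of these data known, so these terms are not independent of that choice.

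Most signalling partners did not pass. All 18 on the list were tested. With LPS, 1 rose and 1 fell in WT cells, and 3 rose and 1 fell in cGAS-/- cells, against the same shares of all genes as for the receptors. Fgr, a Src family kinase, rose by 1.80 and Dok3, an inhibitory adaptor, by 1.01 in cGAS-/- cells (limma adjusted p = 0.0095 and 0.026). The call for Dok3 was lost under 6 of 24 alternatives. Lat2, an adaptor downstream of ITAM receptors, fell by 2.04 in WT and 2.18 in cGAS-/- cells (limma adjusted p = 0.0051 and 0.0046). In WT it fell by 1.43 without WT LPS replicate 3, and from the 6 WT samples alone it did not pass (limma adjusted p = 0.083). With TMM factors, 3 rose in WT and 8 in cGAS-/- cells, against 7.75% and 6.75% of all genes. When WT LPS replicate 3 was left out, 4 rose and 1 fell in WT (8.3% and 26.9% of all genes), and 7 rose and 3 fell in cGAS-/- cells (9.27% and 21.9%).

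Of the 15 listed ligands, 14 were in the table and all 14 were tested. With LPS, 2 rose and 7 fell in each genotype, against 4.31% and 23.3% of all genes in WT and 4.76% and 9.06% in cGAS-/- cells. Thbs1, thrombospondin, rose by 2.87 in WT and 3.19 in cGAS-/- cells (limma adjusted p = 0.00093 and 0.00056). B2m, the light chain of the MHC class I ligand of Pirb, rose by 1.25 and 1.39 (limma adjusted p = 0.018 and 0.017), calls that were lost under 5 and 7 of 24 alternatives. Angptl2, a secreted ligand of Pirb, fell by 2.99 and 3.76 on the log2 scale (limma adjusted p = 1.6e-06 and 2.7e-07). Rtn4, which encodes the Pirb ligand Nogo, fell by 1.76 and 1.68, and Pianp, a ligand of Pilra, fell by 1.35 and 1.43. From the 6 WT samples alone, neither passed in WT cells (limma adjusted p = 0.061 for Rtn4 and 0.074 for Pianp). C1qa, a ligand of Lair1, was lower in cGAS-/- cells with LPS by a log2 difference of -1.47 (limma adjusted p = 0.049), a call that was lost under 16 of 24 alternatives. It was also lower without LPS, at 732 to 831 TPM in cGAS-/- UT against 1729 to 1764 in WT UT. In that comparison 0 of 14 ligands passed by limma, against 0.252% higher and 1.58% lower among all genes.

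**Figure D4:**
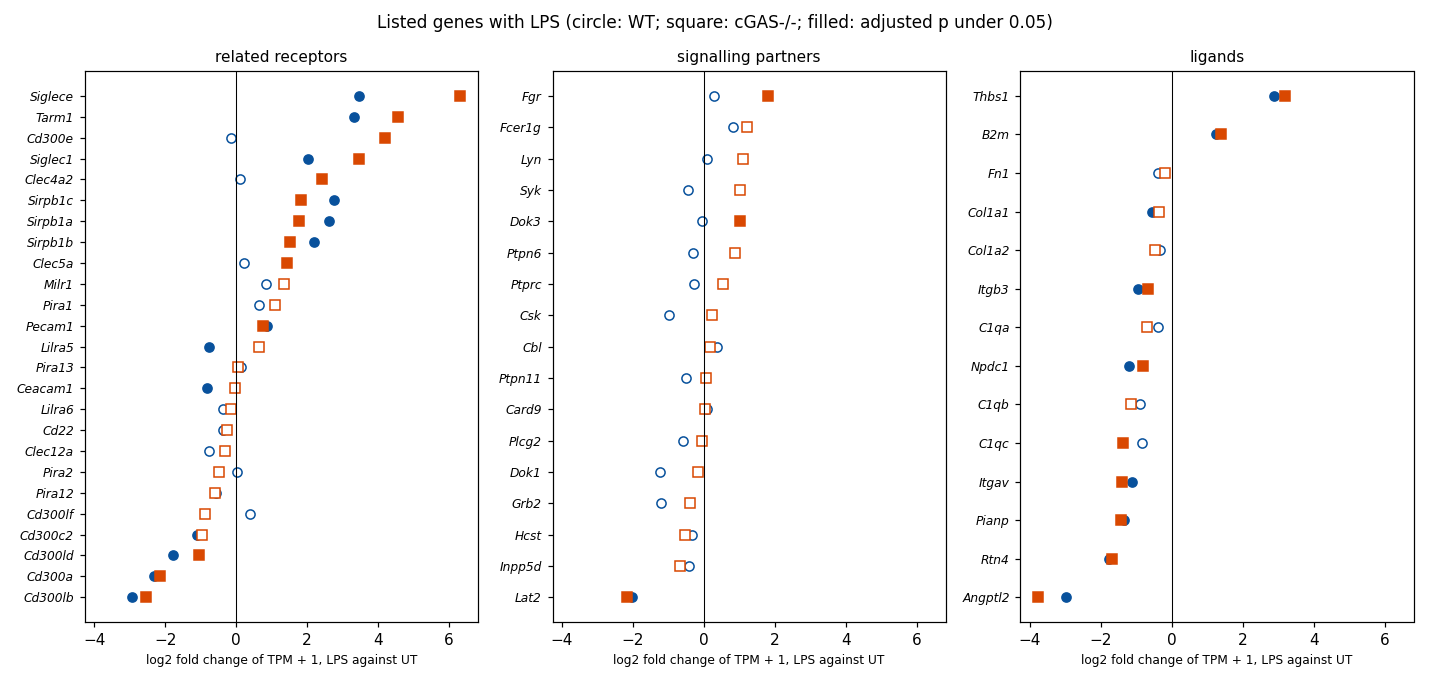
Log2 fold change of TPM + 1 with LPS against UT for the 25 related receptors, 17 of the 18 signalling partners and the 14 ligands tested; circles are WT, squares are cGAS-/-, and filled symbols passed a limma adjusted p of 0.05. Siglece lies furthest to the right, at 3.46 in WT and 6.31 in cGAS-/- cells, and Angptl2 furthest to the left in both, at -2.99 and -3.76.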

How the data were processed

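RNA-seq values of 12 samples were used. Per the labels and methods, the authors trimmed reads with fastp, aligned them with STAR (GRCm39) and estimated abundance with kallisto, with no versions in the labels. The deposited values were taken as kallisto TPM averaged over the transcripts of a symbol, a unit inferred from the values. A listed level therefore does not say which of 2 genes is more abundant: ratios are only followed across samples, sums over markers and shares of a total are sums of the values as listed, and with unknown read numbers no counting interval is given. The deposited table stops within chromosome 13.

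A gene was tested when 3 or more samples reached 1 TPM once each sample was scaled to a total of 1000000, a scaling used in this filter alone (11887 genes). Limma 3.58.1 in R 4.3.3 with a trended variance was fitted to log2(TPM + 1) of all 12 samples, with a mean per group. Passing means a Benjamini-Hochberg adjusted p under 0.05 over all tested genes. The methods' log2 threshold of 2, TMM factors computed from the TPM and other settings were alternatives. A fold change on this scale understates that of low genes. Ratios were compared by exact permutation over samples. The members and lists were chosen with earlier results of these data known. Named genes were all members, Cgas, the 3 largest rises and falls per list and comparison among genes that passed and did not overlap, and, with members left out, the 5 tested genes most like Pilrb1. Genes not reported here were left out of the text and figures.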

Additional observations from a re-analysis of the deposited data

Results flagged for a closer look

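The genotype difference of the 3 Pilr genes had opposite signs without and with LPS in every sample. The log2 difference between cGAS-/- and WT with LPS, minus that in UT cells, was 2.83 for Pilra, 2.14 for Pilrb1 and 1.74 for Pilrb2. These differences were not tested, since the genes were chosen on the comparison with LPS. Without WT LPS replicate 3 they were 2.59, 1.96 and 1.52. Over all 23 alternatives they ranged from 2.095 to 3.316 for Pilra, 1.272 to 2.962 for Pilrb1 and 0.957 to 2.465 for Pilrb2.

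Among the listed relatives, the effect of LPS differed between genotypes by limma's interaction term for Siglece (2.85 on the log2 scale, adjusted p = 0.023) and Cd300e (4.36, adjusted p = 0.0042). The relatives were listed with earlier results of these data known, and no other setting is given for either term. From the 6 LPS samples alone, the genotype difference with LPS passed for neither gene (limma adjusted p = 0.44 for Siglece and 0.15 for Cd300e). Siglece rose with LPS in all samples of both genotypes, and more in cGAS-/- cells. Cd300e rose with LPS in all 3 cGAS-/- samples, while its WT LPS samples overlapped WT UT.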

How the results depend on the processing

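The rises of Pilra and Pilrb1 with LPS had an adjusted p under 0.05 in both genotypes under all 24 other settings, and that of Pilrb2 under all but 1. In WT cells only Pilra also exceeded a log2 change of 2. The number of members higher in UT cGAS-/- cells was 0, and became 1 with quantile normalization (0.505% of all genes called in that fit) and 3 from the 6 samples compared or with sample weights (3.37% and 3.49%). The number lower was 0, and became 1 with a pseudocount of 0.1, TMM factors or quantile normalization (0.681%, 1.53% and 1.39% of all genes), 3 from the 6 samples compared (7.07%) and 4 with sample weights (8.03%). With one sample left out in turn, these numbers ranged from 0 to 1 (0.112% to 1.22% of all genes) and from 0 to 3 (0.622% to 4.28%). With a log2 change beyond 2 as well, LPS in WT cells gave 1 member higher and 0 lower, and LPS in cGAS-/- cells gave 0 lower. The 1 member lower with LPS in WT cells became 0 without the filter, with TMM factors, from the 6 samples compared and with the replicate block (9.52%, 12.3%, 4.62% and 20.8% of all genes), 2 with sample weights (15.6%), and 0 to 3 with one sample left out (13.1% to 44%). The 1 member lower with LPS in cGAS-/- cells became 2 with a pseudocount of 5 or TMM factors (10.7% and 6.88% of all genes), 3 with quantile normalization (8.29%), 0 with a common total (9.04%), 5 from the 6 samples compared or with sample weights (32% and 35.1%), and 0 to 4 with one sample left out (5.45% to 21.9%). The cause of these shifts was not tested. The sign turned for Pirb with LPS in WT cells without WT LPS replicate 2 (-0.13), for Cd33 in UT cells without WT UT replicate 1 (0.011), and for Lair1 with LPS in WT cells with TMM factors (0.14), quantile normalization (0.019) and without WT LPS replicate 3 (0.040). With one sample left out in turn, those 3 differences ranged from -0.13 to 0.94, from -0.27 to 0.011 and from -0.79 to 0.040. The replicate numbers did not pair the samples: 0 of 18 same-numbered pairs had deviations correlated above 0.1 (range -0.031 to 0.038). The replicate block moved the members lower with LPS in WT cells from 1 to 0 and left the other 5 counts at 0, 0, 3, 4 and 1. Depth is unknown, so low genes such as Cd33 carry a counting error that cannot be given.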
